A study of Mus musculus with 8 samples.

Results

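Toll-like receptors and their co-receptors were followed in 3T3-L1 pre-adipocytes (3T3L-1 in the labels) and Raw264.7 macrophages, each grown in transwell co-culture with the other. The group consisted of the receptors Tlr1, Tlr2, Tlr3, Tlr4, Tlr6, Tlr7, Tlr9 and Tlr13, the co-receptor Cd14 and the adaptor Myd88. They were chosen by name, with earlier results of these data known, and found through the accession that each array probe carries. These 10 genes, of 32395 genes or other names on the array, were measured by 11 probes on 29 spots, with 10 spots each for Tlr2 and Myd88, 2 probes for Tlr7 and 1 spot for every other probe.

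The data came from 8 two-colour mouse arrays, 1 for each cell line and treatment, all harvested at 48 h. 3T3-L1 is a fibroblast line from mouse embryo that can be turned into adipocytes and was used here before differentiation, and Raw264.7 is a macrophage-like line that originated in BALB/c mice. In each line 1 array carried untreated cells (NT), 1 cells given 100 µM serotonin, 1 cells given 100 µM cortisol and 1 cells given 100 µM of both hormones (cortisol-serotonin). Every group, NT included, had been co-cultured with the other line through a porous insert. No array of cells grown alone therefore entered any comparison here. The methods describe a separate set-up for each line, with different cell numbers, in which the line taken for RNA was in the lower well. Hormone stocks were made in DMSO, and the labels name no solvent control. RNA of the cells was labelled with Cy5 and a common reference with Cy3. The reference is given by the series as a mixture of every sample in equal parts, and by the methods as a pool of untreated adipocytes and macrophages grown alone. It is the same in both lines by either account and is meant to drop out of each difference between arrays, although its measured signal varied between arrays.

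Toll-like receptors detect conserved molecules of microbes. Tlr2 pairs with Tlr1 or Tlr6 on the cell surface to bind bacterial lipopeptides, Tlr4 binds lipopolysaccharide that Cd14 hands over, and Tlr3, Tlr7, Tlr9 and Tlr13 read nucleic acids inside endosomes. All of them except Tlr3 signal through Myd88 to NF-kB, and macrophages are known to carry most of them, while pre-adipocytes are known to respond to ligands of Tlr2 and Tlr4.

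The first comparison asked how the receptors differed between the lines. It used the log2 ratio of Cy5 to Cy3 after background correction and loess normalization, 4 arrays a line, in a limma model over the 12361 genes whose reference signal was well above background on all 8 arrays. 9 of the 10 members were tested. Tlr13, Cd14, Tlr7, Tlr4, Tlr1, Tlr6 and Myd88 were higher in Raw264.7 cells and Tlr2 was higher in 3T3-L1 cells, while Tlr9 did not pass an adjusted p of 0.05. Thus 7 of 9 members were called higher in Raw264.7, against 35.4% of all genes tested, and 1 was called higher in 3T3-L1, against 41.7%. Of the 7, Tlr7 was well above background in Cy5 on 0 arrays of 3T3-L1 and Tlr1 on 1, as the filter used the reference only. With both channels required on all 8 arrays, 5 members and 4049 of 10995 genes were called higher in Raw264.7. The 4 arrays of one line did not overlap those of the other for 8 of 9 members, which was also the case for 72.6% of all genes tested. 6 of the 7 called higher in Raw264.7 differed at least 2-fold, and the median difference of the 9 members was -1.97 (3T3-L1 minus Raw264.7, log2 scale) against 0.09 over all genes tested.

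**Figure D1:**
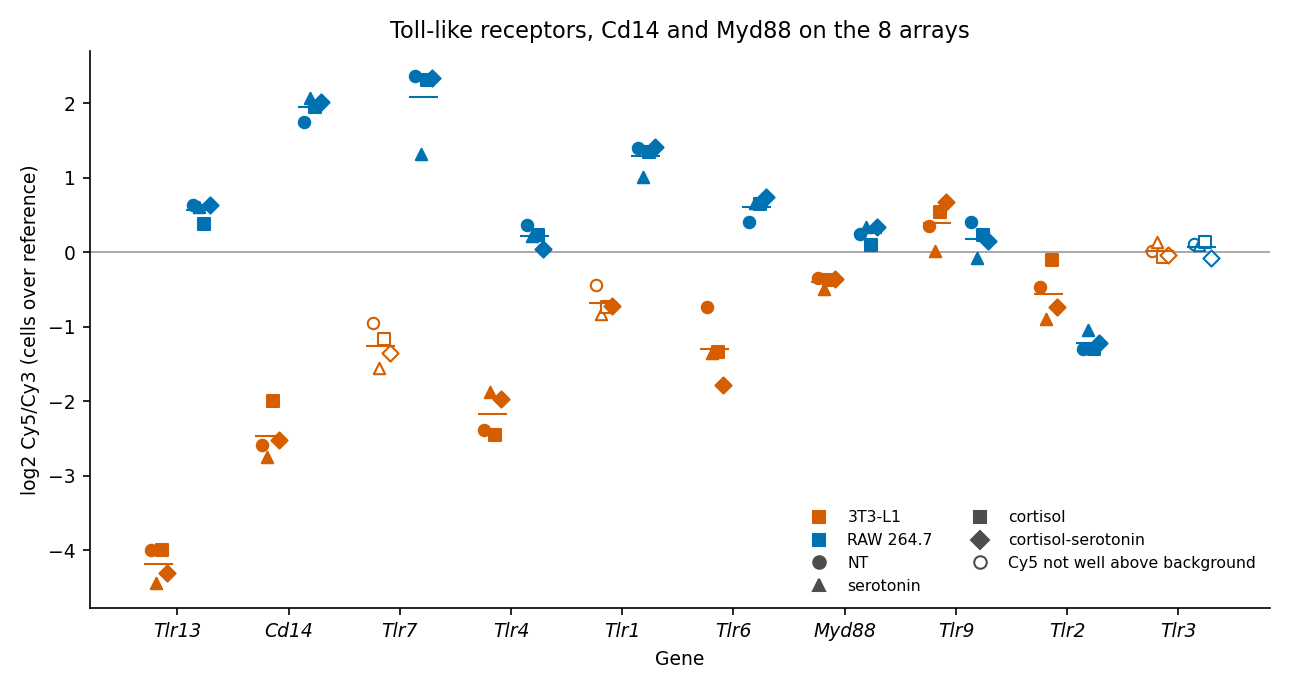
Log2 ratio of Cy5 (cells) to Cy3 (reference) for each member on each array, with colour for the cell line, symbol for the treatment, a short line for the mean of the 4 arrays and open symbols where Cy5 was not well above background. Tlr13 lies between -4.43 and -3.99 in 3T3-L1 and between 0.39 and 0.64 in Raw264.7, whereas for Tlr2 the Raw264.7 arrays lie lower.

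The slide and the cell line coincided, as all 4 arrays of a line were on 1 of 2 slides. The co-culture set-up described in the methods also went with the line. Differences of slide, set-up and line therefore cannot be told apart. The arrays of 3T3-L1 correlated with each other at 0.897 to 0.983 over 13172 probes and those of Raw264.7 at 0.949 to 0.986. The lines matched their markers: 12 of 12 tested macrophage markers were called higher in Raw264.7 and 9 of 9 fibroblast and pre-adipocyte markers in 3T3-L1. Of 13 macrophage markers with a probe, 10 were nonetheless well above background on every 3T3-L1 array (all but Adgre1, Spi1 and Fcgr1). Their summed Cy5 signal as processed by the scanner software ran from 11900 to 28770 units there, against 141100 to 264200 in Raw264.7. The part of these macrophage transcripts in the member signals of 3T3-L1 cells was not tested. In cultures such as these, fewer cells of a type and less RNA per cell cannot be told apart.

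Among the surface receptors, Tlr2, the partner shared by the lipopeptide-binding pairs, ran against the rest. Its log2 ratio was -0.47 (NT), -0.89 (serotonin), -0.11 (cortisol) and -0.74 (cortisol-serotonin) in 3T3-L1 cells. In Raw264.7 cells it was -1.29, -1.04, -1.29 and -1.22 in the same order. All 4 values of 3T3-L1 were higher, but the gap between the closest arrays, both labelled serotonin, was small at 0.15. The mean difference was 0.66 (SE 0.158, n = 4 a line, limma adjusted p = 0.00285), a 1.58-fold higher level in 3T3-L1. An exact two-sided permutation test over the 8 arrays gave p = 0.0286, the smallest value that 4 against 4 arrays allow. The call was lost when arrays were centred on their median in place of loess (0.48, limma adjusted p = 0.151) and when Cy5 was used without the reference (0.47, limma adjusted p = 0.0592). Precision within an array was high, since the SD over the spots of the Tlr2 probe was 0.02 to 0.07 on the 3T3-L1 arrays and 0.04 to 0.05 on the Raw264.7 arrays. Tlr2 was below the reference on all 8 arrays, as were 1986 (16.1%) of the 12361 genes.

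The stretch upstream of the Tlr2 start is shown because it holds overlapping matches to letters of the kappa B element, the DNA element bound by NF-kB. The sequence is from RefSeq (GRCm38.p6), chr3:83841609-83841858 on the minus strand, 5′ to 3′ and ending at the base before the start, with the matches in capitals. A match is GGG followed, after any 5 bases, by CC:

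Tlr2: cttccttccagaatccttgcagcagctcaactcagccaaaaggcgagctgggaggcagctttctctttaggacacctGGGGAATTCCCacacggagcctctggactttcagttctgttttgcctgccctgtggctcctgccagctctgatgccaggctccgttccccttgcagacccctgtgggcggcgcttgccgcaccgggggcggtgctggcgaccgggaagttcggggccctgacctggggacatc

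The capitals are overlapping matches at 173 to 164 and 172 to 163 bases before the start, and the second reads as a match on both strands. Such letters, searched on both strands, occur within 250 bases upstream of 45.8% of the 32851 starts in the RefSeq table, so that a match describes the sequence and does not show a bound site.

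Tlr1 and Tlr6, neighbouring genes on chromosome 5 whose products each pair with Tlr2, were both higher in Raw264.7 cells. Tlr1 had log2 ratios of -0.43, -0.83, -0.73 and -0.72 in 3T3-L1 cells (NT, serotonin, cortisol and cortisol-serotonin) and 1.41, 1.01, 1.35 and 1.41 in Raw264.7 cells. The array labelled serotonin was the lowest in both lines. The difference of -1.97 (SE 0.124, limma adjusted p = 9.06e-08) is 3.93-fold, but the Cy5 signal of Tlr1 was well above background on only 1 of 4 arrays of 3T3-L1 (cortisol-serotonin), with 48 to 74.5 units there against 214 to 277 in Raw264.7. The size depended on the processing. It was 20.3-fold from the processed signals of Feature Extraction, the scanner software, which differ in both background and normalization, while leaving out the background correction alone gave a log2 difference of -2.13.

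Tlr6 was well above background on all 8 arrays. Its log2 ratios were -0.73, -1.35, -1.33 and -1.78 in 3T3-L1 cells and 0.41, 0.66, 0.65 and 0.74 in Raw264.7 cells. NT was the highest array in the former and the lowest in the latter. Over the 8 arrays the difference was -1.91 (SE 0.189, limma adjusted p = 3.62e-06), 3.77-fold higher in Raw264.7. Within single treatments it ran from -1.14 between the NT arrays to -2.52 between the cortisol-serotonin arrays.

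The upstream stretches of this neighbouring pair are shown because the genes lie next to each other and were both higher in Raw264.7. Each gene has a further start in RefSeq, and the start shown is the one that held a motif match. Both of those shown are on the minus strand of GRCm38.p6, chr5:64933559-64933808 for Tlr1 and chr5:64960049-64960298 for Tlr6. Capitals mark GAGGAA, the core letters of sites for the myeloid factor PU.1, in Tlr1 and the kappa B letters in Tlr6.

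Tlr1: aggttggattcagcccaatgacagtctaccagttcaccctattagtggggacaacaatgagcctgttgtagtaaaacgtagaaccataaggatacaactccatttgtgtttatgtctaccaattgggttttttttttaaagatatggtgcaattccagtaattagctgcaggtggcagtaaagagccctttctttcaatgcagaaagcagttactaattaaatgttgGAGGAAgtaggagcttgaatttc
Tlr6: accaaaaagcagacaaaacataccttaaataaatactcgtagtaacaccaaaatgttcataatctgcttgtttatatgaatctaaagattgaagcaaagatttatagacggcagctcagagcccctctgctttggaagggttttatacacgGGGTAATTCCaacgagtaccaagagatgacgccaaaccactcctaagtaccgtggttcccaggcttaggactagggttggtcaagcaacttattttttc

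The Tlr1 match lay 23 to 18 bases before the start and the Tlr6 match 99 to 90 bases before it, and the starts not shown held neither motif. GAGGAA was found, on either strand, upstream of 23.3% of all starts in the table.

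Tlr4, the receptor for lipopolysaccharide, had log2 ratios of -2.38, -1.87, -2.45 and -1.97 in 3T3-L1 cells and 0.37, 0.22, 0.24 and 0.04 in Raw264.7 cells. It was well above background on all arrays, and both 3T3-L1 arrays with serotonin in their label were higher than both without it. The difference between the lines was -2.39 (SE 0.143, limma adjusted p = 6.34e-08), 5.22-fold higher in Raw264.7. Cd14, which delivers lipopolysaccharide to Tlr4, stood further apart. Its log2 ratios were -2.59, -2.75, -1.99 and -2.51 in 3T3-L1 and 1.75, 2.07, 1.95 and 2.01 in Raw264.7, a difference of -4.41 (SE 0.156, limma adjusted p = 1.22e-09) or 21.2-fold. The transcript was still plainly measured on the 3T3-L1 arrays, at 3490 to 5344 units of Cy5 against 38310 to 62426 in Raw264.7. The 12 tested macrophage markers, most of them also well above background there, had a median difference of -4.16 (-6.19 to -2.38). The part of macrophage transcripts in this Cd14 signal was not tested.

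Among the endosomal receptors, Tlr13, which recognises bacterial ribosomal RNA, showed the largest difference of the members. Its log2 ratios in 3T3-L1 cells were -3.99, -4.43, -3.99 and -4.31 (NT, serotonin, cortisol and cortisol-serotonin). In Raw264.7 cells they were 0.63, 0.61, 0.39 and 0.64, so that no array of one line came near the other. The difference of -4.75 (SE 0.124, limma adjusted p = 2.04e-10) corresponds to 26.8-fold and was the 253rd largest of 12361 genes, while Cd14 was the 343rd. From the processed signals of Feature Extraction it was 41.8-fold. On the 3T3-L1 arrays Tlr13 gave 189 to 246.5 units of Cy5, which the scanner called well above background on all 4. The part of macrophage transcripts in this signal was not tested.

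The Tlr13 upstream stretch is printed because this receptor led the difference and its window holds GAGGAA. It lies at chrX:106143025-106143274 on the plus strand of GRCm38.p6 (RefSeq), 5′ to 3′ up to the base before the start, with the match in capitals at 83 to 78 bases before it:

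Tlr13: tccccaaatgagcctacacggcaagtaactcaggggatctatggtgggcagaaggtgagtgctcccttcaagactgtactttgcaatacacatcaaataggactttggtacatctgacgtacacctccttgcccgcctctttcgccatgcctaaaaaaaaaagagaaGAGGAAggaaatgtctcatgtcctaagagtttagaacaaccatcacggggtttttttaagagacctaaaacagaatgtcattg

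GAGGAA occurred upstream of Tlr1, Tlr9 and Tlr13 and the kappa B letters upstream of Tlr2, Tlr3 and Tlr6. The search covered 9 starts of 7 of the 10 members, and Tlr4, Tlr7 and Cd14 were not among those searched.

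Tlr7, a receptor for single-stranded RNA, was not well above background on any array of 3T3-L1 cells by either of its probes. In Raw264.7 cells the mean of the 2 probes was 2.37, 1.33, 2.31 and 2.34 on the log2 scale. The array labelled serotonin was the lowest, and there the probes parted, with 0.68 for one and 1.98 for the other. Because 3T3-L1 gives only a bound, Tlr7 was at least 7.62-fold (first probe) and 14.6-fold (second probe) higher in Raw264.7 by its normalised Cy5 level. The log2 ratio gave a limma adjusted p of 1.92e-07 for the mean of the probes. On the log2 ratio the fitted differences of the probes were -2.92 and -3.76. As folds these are slightly smaller than the bounds, which hold for the Cy5 level only. The bounds, here and for other genes below background, set the mean Cy5 level of Raw264.7 against a floor in 3T3-L1. That floor is the higher of the dim probe and the dimmest detected probe on each array. The Cy5 level was taken after the same background correction and loess normalization, with average intensities quantile-scaled between arrays. The offset of the background correction thus damps low signals in the bounds and in the log2 ratio. With no dye swap the bounds are open to dye bias.

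Tlr9, which binds unmethylated CpG DNA, overlapped between the lines. Its log2 ratios were 0.36, 0.03, 0.54 and 0.67 in 3T3-L1 and 0.41, -0.08, 0.24 and 0.15 in Raw264.7. The difference of 0.22 (SE 0.152) had a limma adjusted p of 0.206 and an exact permutation p of 0.257. Without the 3T3-L1 array labelled serotonin it was 0.35 with a limma adjusted p of 0.0425, and in the Cy5 channel alone it turned to -0.08. Tlr3, the receptor for double-stranded RNA, was not well above background in either channel on any of the 8 arrays, with 35 to 54 units of Cy5, and entered no test.

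Myd88, the adaptor of the receptors other than Tlr3, differed least among those called higher in Raw264.7. Its log2 ratios were -0.34, -0.49, -0.37 and -0.36 in 3T3-L1 and 0.25, 0.34, 0.11 and 0.35 in Raw264.7. The lines did not overlap, and the SD over its spots was at most 0.09 on any array. The difference of -0.65 (SE 0.0911, limma adjusted p = 6.16e-05) is 1.57-fold.

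**Figure D2:**
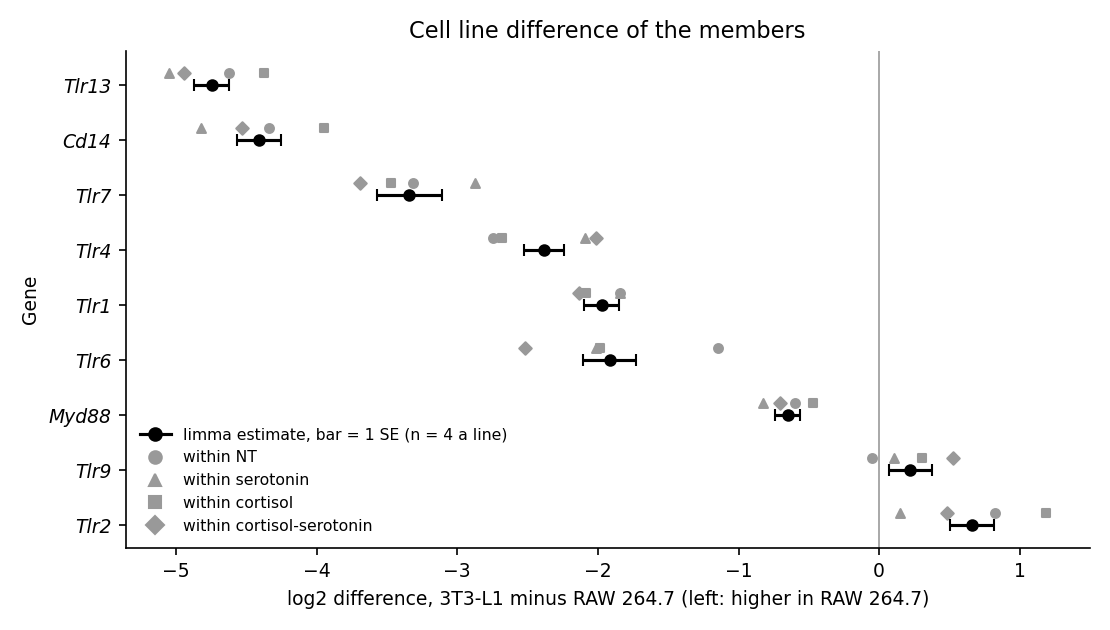
Log2 difference between the lines (3T3-L1 minus Raw264.7) for the 9 tested members, with the limma estimate and 1 SE in black and the difference within each treatment in grey. 7 members lie left of 0 in all 4 treatments, Tlr2 lies right of 0 in all 4, and Tlr9 spans 0. For Tlr7 the 3T3-L1 signal was not above background, so that its point is a fitted value and no measured fold.

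The other genes of the pathway, from lists drawn up with earlier results of these data known, are given beside all genes tested, of which 35.4% were called higher in Raw264.7 and 41.7% in 3T3-L1 (median 0.09). Of 6 tested accessory proteins and chaperones, 4 were called higher in Raw264.7 and 1 in 3T3-L1 (median -0.935). Cd36, a scavenger receptor that works with Tlr2 and Tlr6, was below background in 3T3-L1 and at least 34.7-fold higher in Raw264.7, whereas Cnpy4, a Toll-like receptor chaperone, differed by 0.13 (limma adjusted p = 0.226). Lbp, the lipopolysaccharide-binding protein, went the other way and was 5.73-fold higher in 3T3-L1, although well above background on only 2 of 4 arrays of Raw264.7. Ly96, the subunit that binds lipopolysaccharide beside Tlr4, was 1.45-fold higher in Raw264.7, a far smaller value than that of Tlr4 or Cd14.

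Of 17 adaptors and kinases, 8 were called higher in Raw264.7, 5 higher in 3T3-L1 and 4 not called (median -0.05). These counts leaned to Raw264.7 and those of all genes to 3T3-L1 (35.4% and 41.7%), a contrast that was not tested. Btk, a kinase of haematopoietic cells, was below background in 3T3-L1 and at least 6.03-fold and 31.1-fold higher in Raw264.7 by its 2 probes. Map3k7 (TAK1), the kinase that relays the signal to the IKK complex, had the smallest difference, -0.05 (limma adjusted p = 0.619). Traf6, the ubiquitin ligase downstream of Myd88, was 2.38-fold higher in 3T3-L1.

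Of 9 negative regulators, 4 were called higher in Raw264.7 and 5 in 3T3-L1 (median 0.88), and the same counts held for 9 transcription factors (median 0.52), both splits lying near that of all genes. Irak3, which blocks release of the Irak kinases from the receptor complex, was below background in 3T3-L1 and at least 11-fold higher in Raw264.7. Il1rl1, an interleukin receptor known to sequester Myd88, was 11.2-fold higher in 3T3-L1, and Tnip1 differed by -0.28 (limma adjusted p = 0.0275). Irf5, a factor activated through Myd88, was 19.9-fold higher in Raw264.7, while Nfkb2 was 1.43-fold higher in 3T3-L1. The remaining Toll-like receptors of the mouse, Tlr5, Tlr8, Tlr11 and Tlr12, were well above background on at most 1 of 8 arrays and entered no test.

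**Figure D3:**
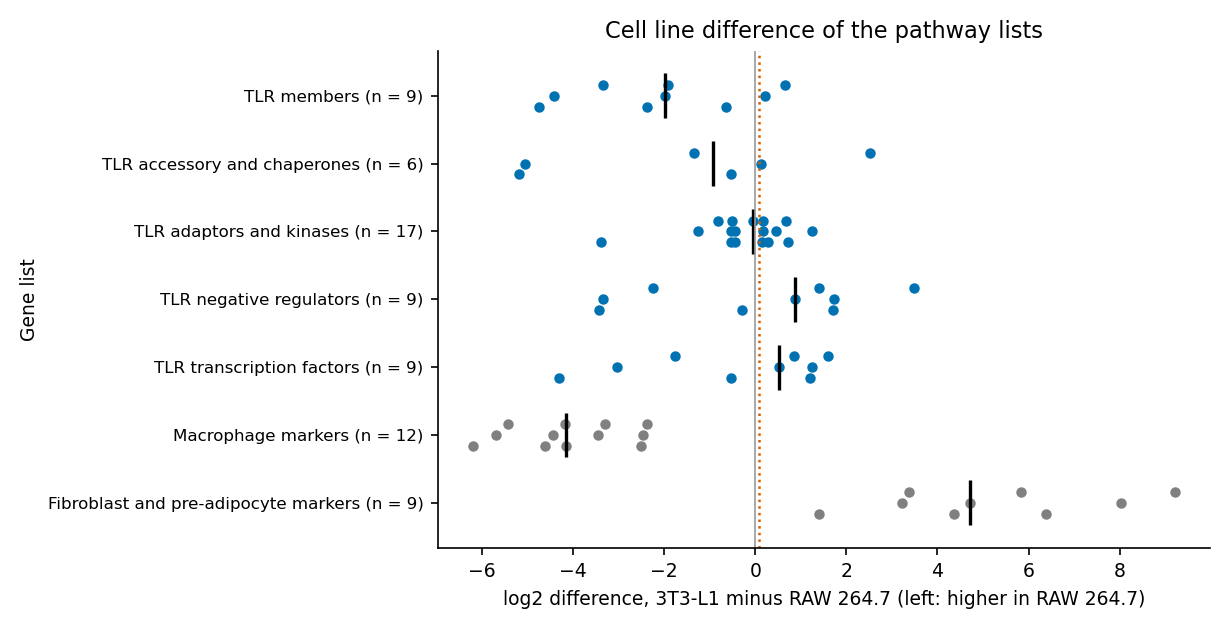
Log2 difference between the lines (3T3-L1 minus Raw264.7) for each tested gene of the members and of the other lists, with 1 point a gene, a black bar at the median of the list and a dotted line at the median of all 12361 genes (0.09). The members centre at -1.97, between the macrophage markers at -4.16 and the adaptors and kinases at -0.05. Genes below background in one line are drawn at their fitted value.

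The second comparison set each treated array against the NT array of its own line, to ask what the hormones did to the receptors of co-cultured cells. A gene had to be well above background in both channels on both arrays, which left 7 members in 3T3-L1 cells (without Tlr1, Tlr3 and Tlr7) and 9 in Raw264.7 cells (without Tlr3). With 1 array a condition a single treated array could not be tested against NT, changes were counted from 2-fold, and the error beside a difference is the one that Feature Extraction estimates for technical noise. Each treatment had the same position on both slides, so that position and treatment cannot be told apart. The arrays are named by their labels. The glucocorticoid target Fkbp5 was 2.49-fold higher than NT on the 3T3-L1 array labelled serotonin and within 0.14 of NT on the log2 scale on that labelled cortisol, and Tsc22d3, another such target, was 2.08-fold lower on the latter. With cortisol-serotonin they were 2.72-fold and 1.71-fold higher. In Raw264.7 Tsc22d3 was 1.54-fold higher with serotonin, 1.22-fold lower with cortisol and 1.44-fold higher with both, and Fkbp5 changed by at most 1.26-fold. In each line, both genes were thus lower with the cortisol label than with the serotonin label. It is not settled whether the labels of the cortisol and serotonin arrays are exchanged.

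In 3T3-L1 cells the member beyond 2-fold was Tlr6. It was lower than NT on all 3 treated arrays, with log2 differences of -0.60 (error 0.349) for cortisol, -0.62 (error 0.353) for serotonin and -1.05 (error 0.384) for cortisol-serotonin, the last being 2.07-fold. Thus 1 of 7 members passed 2-fold with cortisol-serotonin, where 1.45% of all measured genes did. No member passed with cortisol (1.67% of all genes) or with serotonin (1.26%). The size of the cortisol-serotonin value depended on the processing. It was -1.54 from the processed signals of Feature Extraction, -0.53 from Cy5 without the reference and -0.25 after centring arrays on their median, which by itself put the median of all genes at 0.981, so that Tlr6 stood at -1.23 relative to that median.

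The other members of 3T3-L1 cells stayed within 2-fold. Tlr4 was higher on both arrays with serotonin in their label, by 0.51 (error 0.41) and 0.41 (error 0.417), and changed by -0.07 with cortisol. Tlr2 was lower on both, at -0.42 (error 0.299) and -0.27 (error 0.296), and higher with cortisol by 0.36 (error 0.29). Cd14 was 0.60 higher with cortisol (error 0.416) and within 0.16 of NT on the other arrays. Myd88 changed by at most 0.14 on any array, and Tlr13 by -0.44 at most, inside its error of 0.692. Tlr9 was 0.18 and 0.31 higher with cortisol and cortisol-serotonin and stood at -0.33 with serotonin (errors 0.325 to 0.338). On the array labelled serotonin 6 of 7 members were below NT (median -0.335, all genes 0.01).

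Markers of both cell types were also mostly lower than NT on the treated 3T3-L1 arrays. All 10 measured macrophage markers were lower on the array labelled serotonin (median -0.504) and on that labelled cortisol-serotonin (median -0.372). With cortisol 3 of 10 were higher (median -0.141). Of 11 measured fibroblast and pre-adipocyte markers, 3 were higher with serotonin (median -0.302), 4 with cortisol (median -0.166) and 4 with cortisol-serotonin (median -0.0691). The summed processed Cy5 signal of the macrophage markers was 18900 with NT, 11900 with serotonin, 20630 with cortisol and 28770 with cortisol-serotonin. This sum is not scaled between arrays, and with cortisol and cortisol-serotonin it ran opposite to the median log2 difference. The part of macrophage transcripts in the values of Tlr2, Tlr6 and Tlr13 was not tested.

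In Raw264.7 cells the value beyond 2-fold was that of Tlr7. Tlr7 was lower on the array labelled serotonin, with a log2 difference of -1.04 (error 0.472) or 2.06-fold, and within 0.06 of NT on the other arrays. Its probes disagreed on the size, with -1.67 for the first and -0.42 for the second, and in the Cy5 channel alone the mean was -0.60. Thus 1 of 9 members passed 2-fold with serotonin, where 0.929% of all measured genes did, and none passed with cortisol (0.0808%) or cortisol-serotonin (0.237%). The unscaled reference signal (Cy3) also departed from NT on the Raw264.7 array labelled serotonin. For Tlr7 it was 151 against 263 units by the first probe and 311 against 243 by the second. For Tlr13 it was 2432 against 6564.5 and for Myd88 5012.2 against 4344, while the array median was 137.5 against 135.75.

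Tlr6 was higher than NT on all treated arrays of Raw264.7, by 0.24 (cortisol), 0.25 (serotonin) and 0.33 (cortisol-serotonin) with errors of 0.306 to 0.313, opposite to 3T3-L1. When Cy5 was used without the reference, the values with serotonin and cortisol-serotonin turned to -0.42 and -0.36. Cd14 was also higher on every treated array, by 0.20 to 0.32, and Tlr4 and Tlr9 were lower on all, at -0.13 to -0.32 and at -0.17 to -0.49. Of these, the Tlr6 and Tlr4 values with cortisol-serotonin (errors 0.31 and 0.294) and the Tlr9 value with serotonin (error 0.35) were larger than their error, and the others were not. Without the reference Cd14 turned to -0.05 with serotonin and -0.15 with cortisol-serotonin, and Tlr9 turned to 0.09 with cortisol and 0.20 with cortisol-serotonin. In that setting Tlr4 with cortisol-serotonin went to -0.98, so that for these members the signs or sizes in Raw264.7 rested on the ratio to the reference. Tlr1 stood at -0.39 with serotonin (error 0.431) and within 0.06 of NT otherwise, Tlr13 at -0.25 with cortisol (error 0.304), and Tlr2 and Myd88 changed by less than their errors on every array. With serotonin and without the reference, Tlr2 turned from 0.25 to -0.42, Tlr1 turned to 0.14, Myd88 went from 0.09 to 0.90 and Tlr13 from -0.02 to -0.99. On the array labelled serotonin all 6 measured fibroblast and pre-adipocyte markers were higher than NT (median 0.831), with Col3a1 at 3.999-fold and Dlk1 at 2.04-fold, although their summed processed Cy5 signal, which is not scaled between arrays, was 4563 against 8802 with NT. On the array labelled cortisol-serotonin 5 of 6 were higher (median 0.415), with Fstl1 at 2.25-fold, and 10 of 12 macrophage markers were lower (median -0.356). Their part in the Tlr7 value with serotonin and in the Tlr4 and Tlr6 values with cortisol-serotonin was not tested.

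**Figure D4:**
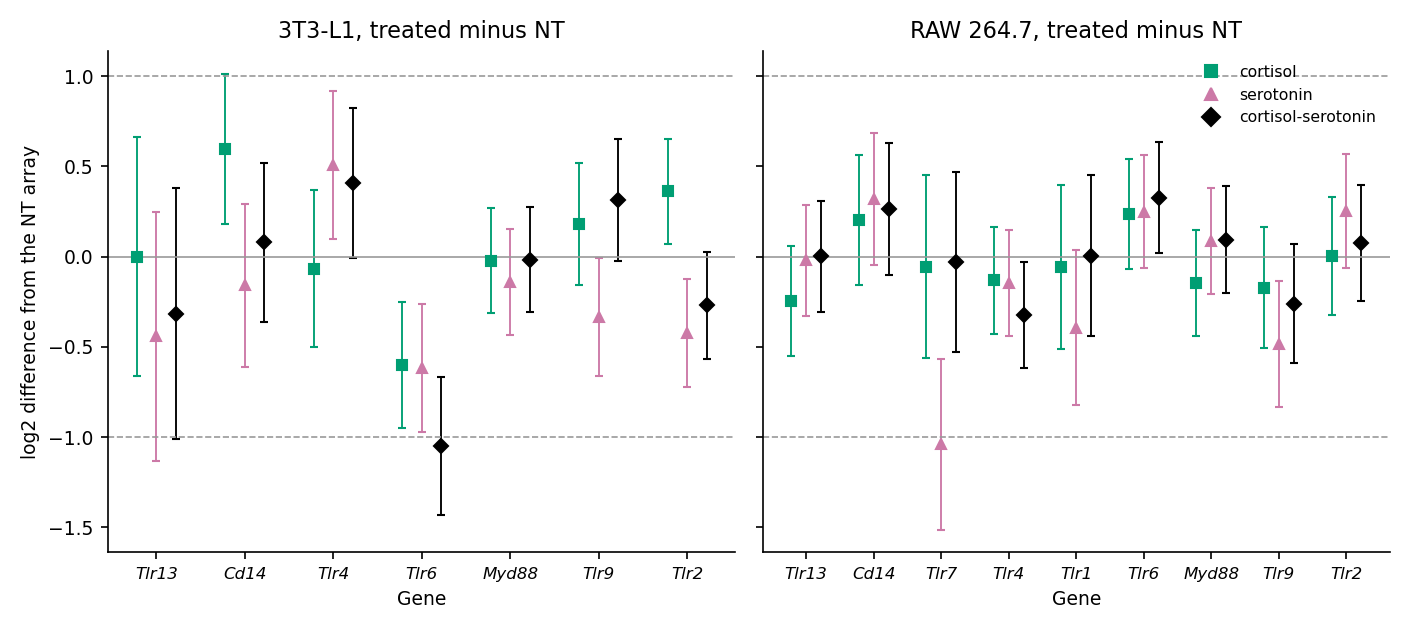
Log2 difference of each treated array from the NT array of its own line, for the 7 members measured in 3T3-L1 (left) and the 9 measured in Raw264.7 (right), with bars of 1 Feature Extraction error and dashed lines at 2-fold. Tlr6 with cortisol-serotonin in 3T3-L1 (-1.05) and Tlr7 with serotonin in Raw264.7 (-1.04) are the values beyond 2-fold.

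Of the other pathway genes, Lbp in 3T3-L1 was 2.01-fold higher than NT on the array labelled serotonin and 2.41-fold higher with cortisol-serotonin. Irak3 exceeded NT by 1.15 (log2) on the Raw264.7 array labelled serotonin. No other gene of the accessory, adaptor, regulator and factor lists passed 2-fold on any treated array. Spi1, which encodes PU.1, was lower, at -1.21 (log2), with cortisol-serotonin in Raw264.7.

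A limma model that added the effects of both hormones within each line, with 2 residual degrees of freedom, called no member at an adjusted p under 0.05. Hormones are those of the labels, so that exchanged labels in a line would exchange its cortisol and serotonin effects. In 3T3-L1 cells the serotonin effect had an unadjusted p under 0.05 for 4 of 7 members and 1478 of 11975 genes, and 0.2% of all genes passed after adjustment. The effects were -0.53 for Tlr6 (SE 0.141), -0.53 for Tlr2 (SE 0.144), 0.49 for Tlr4 (SE 0.134) and -0.38 for Tlr13 (SE 0.146), with limma adjusted p of 0.254 to 0.373. Tlr6 was lower on the serotonin array than on NT (-0.62) and on the cortisol-serotonin array than on the cortisol array (-0.45), comparisons that share no array. Tlr2 (-0.42 and -0.63) and Tlr4 (0.51 and 0.48) likewise kept their sign in both.

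The cortisol effect in 3T3-L1 cells had an unadjusted p under 0.05 for Tlr6 (-0.52, SE 0.141) and Cd14 (0.42, SE 0.16), that is 2 of 7 members and 232 of 11975 genes, with a limma adjusted p of 0.93 for both. The share of all genes passing was 0%. In Raw264.7 cells no member had an unadjusted p under 0.05 for either hormone, against 307 of 11348 genes for cortisol and 403 for serotonin, and the share passing was 0% for both.

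The difference between the lines in these effects was tested as an interaction over 10995 genes. For Tlr6 the effect in 3T3-L1 was below that in Raw264.7 by -0.67 for cortisol (limma adjusted p = 0.98) and by -0.70 for serotonin (limma adjusted p = 0.574), so that neither passed. For Tlr2 and Tlr4 the serotonin effect differed by -0.69 and 0.66 (limma adjusted p = 0.574 for both).

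With the mean of each line taken away, the genes whose log2 ratios followed Tlr2 most closely over the 8 arrays were Ptges3 (Pearson r 0.99), Cfb (0.982) and Slc11a1 (0.977), out of 10995 compared. Those closest to Tlr6 were Tamm41 (0.987) and Brf2 (0.981), and those closest to Tlr13 were Bcl2l15 (0.984), Socs1 (0.97) and Thada (0.967). These are the extremes of many correlations over few arrays that share their reference and slides, and describe these arrays only.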

How the data were processed

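Each array was scanned and quantified by the authors with Agilent Feature Extraction, version 10.5.1.1 per the labels (the methods give another version). The deposited files hold, per spot, median signal and background intensity of both channels, processed signal intensity, and a log10 ratio of Cy5 to Cy3 with its error and flags. The deposited series table of the authors holds the same log10 ratio. The files hold no mean signal, so that median signals were used.

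Background was corrected with normexp (offset 50) and the log2 ratio computed from the deposited intensities was normalised by loess within arrays (limma 3.58.1, R 4.3.3). Control spots had weight 0, outlier spots were dropped and spots of a probe averaged. Accessions named 27508 of 39429 probes (69.8%) through RefSeq (GRCm38.p6, for names, neighbours and upstream sequences). A gene took the mean of its passing probes. No non-control spot was saturated; median Cy5 signals were 51 to 103 units over backgrounds of 26.5 to 28, and the number of arrays limits the precision.

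Arrays were grouped by their labels, 1 per condition. The labels do not say whether cultures were separate, so p-values measure the spread between these arrays, which in the line comparison includes the treatments. Lines were compared with lmFit and eBayes and Benjamini-Hochberg adjustment at 0.05 over all genes tested, hormones by an additive model, and treated arrays against NT by 2-fold counts. The fits were checked on simulated data. Alternatives were background correction, centring, processed signals, Cy5 alone with quantile normalization, the series table, the filter, treatment as a block and leaving out arrays. Named are all 10 members, the largest and smallest line difference and any 2-fold treated value of each other pathway list, and the 3 genes most like Tlr2, Tlr6 and Tlr13 (1 of those for Tlr6 is not reported here); Ly96, Traf6, Fkbp5, Tsc22d3 and the treated marker genes were named after their values were seen. Members and lists (92 genes in 8 lists) were chosen with earlier results of these data known.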

Additional observations from a re-analysis of the deposited data

Results flagged for a closer look

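In groups of 4 arrays, 1 array can be tested for standing apart by its gap to the nearest other array over the range of the group, against the critical value of Dixon's test. Of 16 such groups of members and lines, 4 passed. The share of all genes that would pass was not computed. The 4 arrays of a group are different treatments and not replicates, so that the count only points to values for a closer look. Tlr7 in Raw264.7 had a ratio of 0.946, from the array labelled serotonin at 1.33 against 2.31 to 2.37 on the others, and its probes disagreed there (0.68 and 1.98). Tlr1 in Raw264.7 had a ratio of 0.84, from the same array at 1.01. Tlr13 in Raw264.7 had a ratio of 0.913, from the array labelled cortisol at 0.39 against 0.61 to 0.64. Myd88 in 3T3-L1 had a ratio of 0.836, from the array labelled serotonin at -0.49 against -0.37 to -0.34.

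Tlr6 was below NT on every treated array of 3T3-L1 and above NT on every treated array of Raw264.7, and the mean of the treated differences was 1.03 lower in the former (-1.03). All treated arrays of a line share its NT array. The contrast of treated and NT itself was not tested, and the interaction of each hormone with the line did not pass (limma adjusted p of 0.98 for cortisol and 0.574 for serotonin). The direction in Raw264.7 rested on the ratio to the reference, as it turned with serotonin and cortisol-serotonin in the Cy5 channel alone.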

How the results depend on the processing

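Over all alternatives the members called higher in Raw264.7 numbered 5 to 7, with 5 where both channels had to be above background on all 8 arrays, which left out Tlr1 and Tlr7. Members called higher in 3T3-L1 numbered 0 with median centring, 0 in the Cy5 channel alone and 1 to 2 on leaving out an array, with 2 without the 3T3-L1 array labelled serotonin, where Tlr9 passed. Tlr9 reversed to -0.0784 in the Cy5 channel alone. With median centring 2935 genes were called higher in 3T3-L1 and 3583 in Raw264.7, against 5156 and 4375. Median centring also gave 2-fold values for 2 members with cortisol, 3 with serotonin and 3 with cortisol-serotonin in 3T3-L1, and 0 with serotonin in Raw264.7. It put the median of all genes at 0.574, 1.05 and 0.981 in 3T3-L1 and -0.163 in Raw264.7, and relative to that median the 2-fold members were Cd14 with cortisol and Tlr6 with cortisol-serotonin in 3T3-L1, and none in Raw264.7. The Cy5 channel alone gave 0 members for cortisol-serotonin in 3T3-L1 and 0 for serotonin in Raw264.7. With median centring 1 member was called for serotonin in 3T3-L1, and the serotonin effects of Tlr13 (0.39), Tlr2 (0.27) and Tlr6 (0.0404) reversed there. The causes were not tested beyond these shifts.

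Counts of 2-fold genes in 3T3-L1 were 219 for cortisol (2273 with median centring, 598 processed signals, 595 series table), 163 for serotonin (7000, 366 and 366, with 376 in Cy5 alone and 252 unfiltered) and 186 for cortisol-serotonin (6156, 357 and 355, with 523 in Cy5 alone). In Raw264.7 they were 10 for cortisol (63 processed signals, 84 Cy5 alone, 62 series table, 83 unfiltered), 112 for serotonin (445, 911, 442 and 389) and 30 for cortisol-serotonin (117, 578, 114 and 121). Genes called for serotonin in 3T3-L1 numbered 24, with 3800 under median centring, 10 with processed signals, 1 in Cy5 alone, 275 from the 4 arrays of the line and 0 to 275 on leaving out an array: 0 without any 1 array of 3T3-L1. For cortisol in 3T3-L1 they numbered 0, with 1 from the 4 arrays of the line and 0 to 1 on leaving out an array. In Raw264.7 they numbered 0 for cortisol, with 0 to 48 on leaving out an array (48 without NT or cortisol), and 0 for serotonin, with 1 under median centring, 1 in Cy5 alone and 0 to 52 on leaving out an array (52 without cortisol or cortisol-serotonin, 7 without NT or serotonin). The single probes of Tlr7 were added after seeing the data and gave line differences of -2.92 and -3.76. Slide as a block was not run, as slide and cell line coincide. Treatment as a block, which pairs the lines, called 7 members higher in Raw264.7 and 1 in 3T3-L1 and changed no member's call. Conditions within a line have 1 array each and hold no replicates to pair. Signal over background limits Tlr1, Tlr3 and Tlr7 in 3T3-L1.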
